A study of Drosophila melanogaster with 3 samples.

Results

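The strongest Bsh peaks in L4 lamina neurons were the 306 peaks of replicate 1 that had a score of 4 or more and overlapped, by at least 1 bp, a peak in both replicate 2 and replicate 3. They were 10.8% of the 2834 peaks of replicate 1, and are called members here. Replicates 2 and 3 held 2838 and 2891 peaks. In total 308 peaks of replicate 1 reached the score, and 2 of them were left out because they overlapped no peak of replicate 3. One lay at Dh44-R1, a receptor for the diuretic hormone 44 neuropeptide, with scores of 4.18 in replicate 1 and 4.11 in replicate 2. The other lay at CG31324, with 4.08 and 4.11. Of all replicate 1 peaks, 83.6% overlapped a peak in both other replicates, and the 2062 of these that scored below 4 are called the other shared peaks.

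The data came from Drosophila melanogaster pupae that carried R31C06-Gal4, which drives expression in L4 neurons, with tubP-GAL80ts, a UAS transgene for myristoylated tdTomato and the Bsh-TaDa transgene (UAS-GFP-Bsh-DAM). Pupae with the same driver, GAL80ts and tdTomato but the FlyORF-TaDa line, which makes Dam alone, were the background for every score. The transgenes were active from 46 to 76 hr APF, the window of synapse formation, and DNA came from pooled dissected laminae, so the restriction to L4 rests on the driver. The 3 biological replicates formed 1 group, so no condition was compared with another.

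Bsh is a homeodomain transcription factor found in L4 and L5 neurons of the lamina, the first optic neuropil of the fly. In Targeted DamID, Bsh is fused to the bacterial enzyme Dam, which methylates adenine in GATC sequences near the places where the fusion protein meets DNA. The methylated fragments are amplified and sequenced, so a peak marks occupancy relative to Dam alone between neighbouring GATC sites, and does not show whether the gene beside it responds. The score is the value that the peak caller gave, with no unit. Genomic DNA holds no expressed markers, so the cell type label could not be checked against marker genes. The peak lists hold no read counts, so the depth behind a peak is unknown.

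The scores of replicate 1 chose the members and are given only as a description. They lay between 4.00 and 5.38 with a median of 4.215, and 16 members stood at exactly 4.00. In replicate 2, whose scores the threshold did not use, the members had a median score of 4.19, with quartiles of 4.04 and 4.39, against a median of 3.05 for the other shared peaks. In replicate 3 the median was 4.035, with quartiles of 3.83 and 4.25, against 2.80 for the other shared peaks. The members thus remained at the upper end of both lists. Their median percentile was 94.0 among all peaks of replicate 2 and 93.5 among all peaks of replicate 3.

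A score of 4 or more was reached again by 242 members in replicate 2 (79.1%) and by 171 members in replicate 3 (55.9%). Of all peaks, 11.8% reached it in replicate 2 and 7.37% in replicate 3. Both other replicates were at 4 or more for 154 members, replicate 2 alone for 88, replicate 3 alone for 17 and neither for 47. Scores were lowest in replicate 3. Its score was below that of replicate 1 in 253 members (82.7%) and in 1531 other shared peaks (74.2%), and the median difference, replicate 3 minus replicate 1, was -0.20 for members and -0.17 for the other shared peaks. Ranks within each list set this shift aside, and by rank 230 members lay in the top 10% of replicate 2 and 219 in the top 10% of replicate 3. The corresponding counts for the top 20% were 296 and 289.

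**Figure D1:**
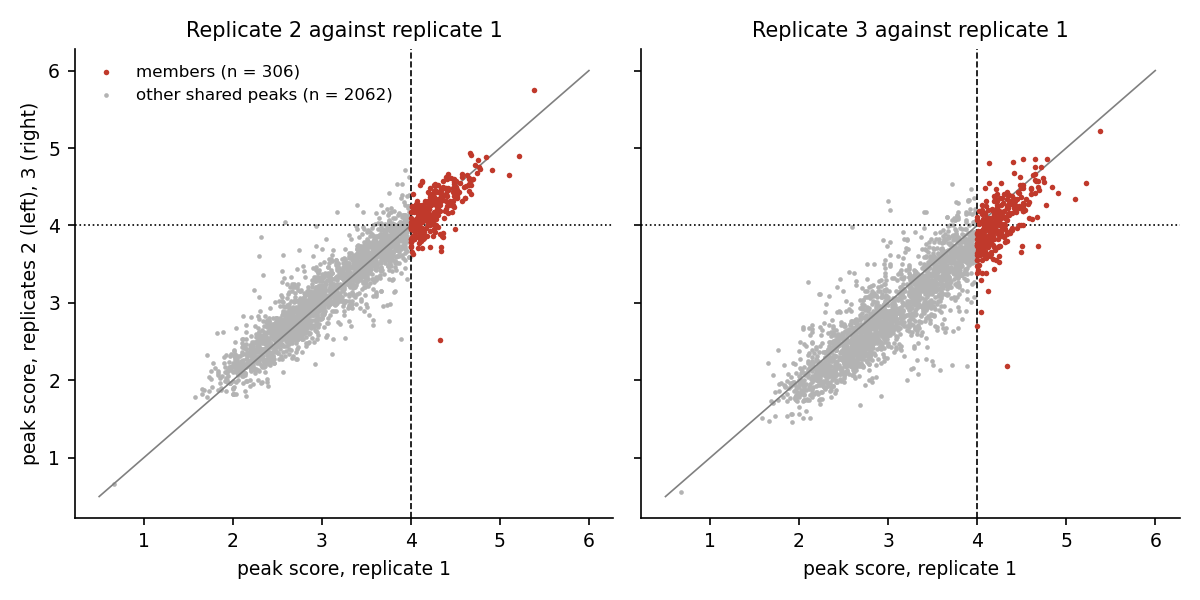
Peak scores in replicate 2 (left) and replicate 3 (right) against the score in replicate 1, with 1 point per shared peak, 306 members in red and 2062 other shared peaks in grey. The dashed line is the threshold of 4 that chose the members, the dotted line the same score in the other replicate, and the diagonal marks equal scores; 242 members lie above the dotted line in replicate 2 and 171 in replicate 3, and the lowest point in red is the peak at gukh.

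The highest member in each of the 3 replicates was the same peak, inside ush, which encodes the zinc finger protein U-shaped, a cofactor of GATA transcription factors. It spanned 769 bp (2L:518089-518857). Its scores were 5.38, 5.75 and 5.22, in the order of replicates 1, 2 and 3 that is kept for all members, or 5.45 ± 0.272 as mean and SD (n = 3). No other member scored 5 or more in replicate 2 or 3, and only Vha16-1 and a peak beside drl did so in replicate 1. Vha16-1, the proteolipid subunit of the vacuolar proton pump, had a 559 bp peak (2R:6630601-6631159) at 5.22, 4.90 and 4.55. A 464 bp peak with no gene within 1 kb (2L:19235083-19235546), between drl, a Wnt receptor of the Ryk family that guides axons, and CG31797, scored 5.10, 4.65 and 4.34. In both of these the scores of the replicates not used for the choice were lower than that of replicate 1, and both remained among the 30 highest members by the mean of replicates 2 and 3.

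The 20 highest members by that mean lay at genes of varied roles. The 752 bp peak at hts, the fly adducin that caps and links actin to spectrin, scored 4.78, 4.73 and 4.86 (2R:19413633-19414384). The peak at Gug, the corepressor Atrophin, scored 4.72, 4.78 and 4.75 (3L:8451480-8453981). Although these scores nearly coincided, its length was 2502 bp in replicate 1 and 1411 bp in replicates 2 and 3. A peak listed for prominin-like, a member of the prominin family of membrane proteins, scored 4.66, 4.93 and 4.57. The peak at Pect, an enzyme of phosphatidylethanolamine synthesis, scored 4.65, 4.61 and 4.86. The peak at crp, which encodes the bHLH protein Cropped, scored 4.75, 4.85 and 4.56, and the peak at Mp, the collagen Multiplexin, 4.84, 4.88 and 4.5.

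Others of the 20 lay at a range of genes. In rut, the calcium- and calmodulin-responsive adenylyl cyclase needed for olfactory memory, a 790 bp peak (X:14813965-14814754) scored 4.52, 4.39 and 4.86. In put, the type II receptor shared by BMP and activin signals, the peak scored 4.41, 4.60 and 4.68, and it was 3276 bp long in replicate 1 but 1501 bp in replicates 2 and 3. The peak at CG42684, named raskol in current annotation and encoding a Ras GTPase-activating protein, scored 4.74, 4.68 and 4.61. The peak inside stai, the microtubule regulator stathmin, scored 4.65, 4.45 and 4.67. For bun, a TSC22 family transcription regulator, the 3 scores of 4.63, 4.65 and 4.65 were almost equal and the borders were the same in every replicate. Eip75B, an ecdysone-induced nuclear receptor, had 4.27, 4.51 and 4.55, so that both replicates not used for the choice were above the first.

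The rest of the 20 were CG11050, CG17839 with the long non-coding RNA CR44702, a peak inside RhoGAP100F that was also listed for the heme synthesis gene FeCH, CR45643 with tara, and 2 peaks with no gene within 1 kb. RhoGAP100F, the fly Syd-1 protein of the presynaptic active zone, had the lowest score of the 20 in replicate 1, at 4.13, against 4.58 in replicate 2 and 4.55 in replicate 3. The peak was 2475 bp long in replicate 1 and 562 bp in the others. One of the gene-free peaks lay between CG45545 and Nlg3, a neuroligin (3R:7566252-7567661), and scored 4.68, 4.91 and 4.57. The other lay between corto, which encodes a chromatin protein, and CG43131 (3R:5098044-5099074), and scored 4.65, 4.54 and 4.76. Of the 20, 16 lay inside a protein-coding gene, and the mean scores of the 20 over the 3 replicates ran from 4.42 to 5.45.

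**Figure D2:**
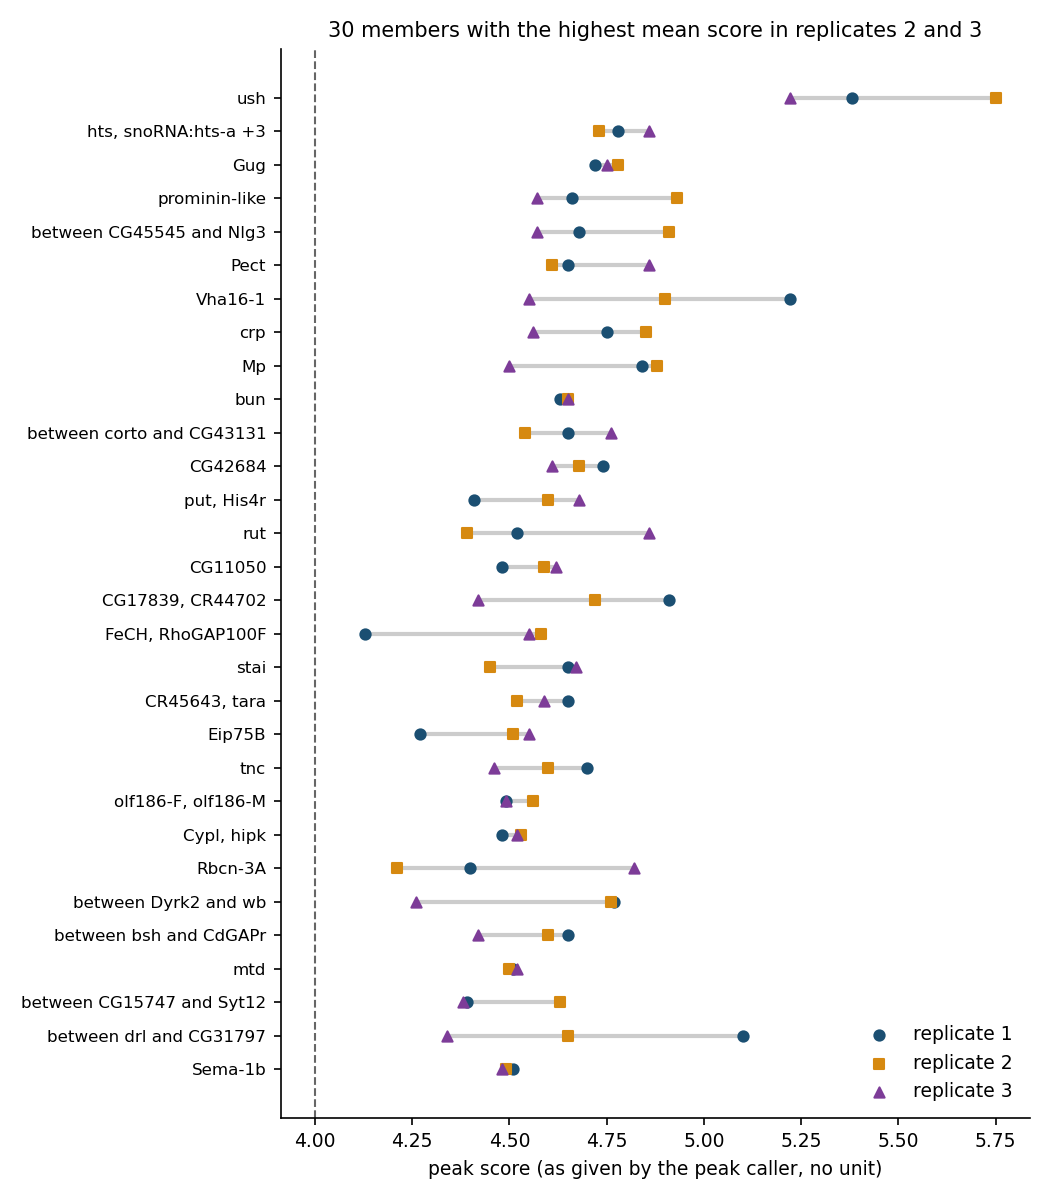
Peak score in each replicate (circles, replicate 1; squares, replicate 2; triangles, replicate 3) for the 30 members with the highest mean score in replicates 2 and 3, listed from the highest at the top; the grey bar is the range of the 3 scores and the dashed line the threshold of 4. All 3 scores of ush, at 5.22 to 5.75, lie to the right of every other point except the replicate 1 point of Vha16-1, also at 5.22. The replicate 1 point of the peak beside drl is at 5.10.

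The spread over the 3 replicates was small relative to the range of all replicate 1 peak scores, 0.67 to 5.38. It was less small beside the narrow range of the members, whose replicate 1 quartiles were 4.09 and 4.36. Pearson correlations of scores between pairs of replicates were 0.62 to 0.71 among members, against 0.90 to 0.94 over all shared peaks. The order among members was thus reproduced only in part. The SD of a member had a median of 0.145, with quartiles of 0.0951 and 0.226, against a median of 0.176 for the other shared peaks. It was below 0.1 in 82 members (26.8%), against 396 other shared peaks (19.2%), and above 0.3 in 31 members (10.1%), against 314 (15.2%). The SD includes the replicate 1 score that chose the members, so these contrasts are a description and not independent of the choice. At the lower end, a peak over CG12991 and CG12992 scored 4.02 in every replicate. The peak inside mtd, a TLDc domain gene, scored 4.51, 4.5 and 4.52, and the peak inside Sema-1b, a transmembrane semaphorin, 4.51, 4.49 and 4.48. In 14 members all 3 scores were 4.5 or more.

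At the upper end stood gukh, which encodes a binding partner of the synaptic scaffold Discs large. Its peak scored 4.33 in replicate 1 and 2.52 and 2.19 in replicates 2 and 3, an SD of 1.15. The peak was 1068 bp long in replicate 1 and 3836 bp in each of the others. The highest scores listed for gukh at any peak were 4.12 in replicate 2 and 3.54 in replicate 3. CG4168 scored 4.00, 3.97 and 2.70, with lengths of 329, 329 and 850 bp. A peak inside tud, which encodes the germ plasm protein Tudor, that was also listed for the GTP cyclohydrolase gene Pu, scored 4.04, 3.83 and 2.88, with lengths of 795, 795 and 1495 bp. The peak at Dredd and su(sable) scored 4.12, 3.71 and 3.16, with lengths of 1486, 1941 and 1941 bp. In these cases the low score stood beside the longer peak. A peak within Akap200, an anchoring protein for protein kinase A, was different. Its scores were 4.68, 4.52 and 3.73 while its length was 448 bp in every replicate. Lengths were also equal in all replicates at CG14186 with CR44679 (300 bp), CR31840 (1556 bp) and CG34383 (683 bp). CG14186 scored 4.05, 4.24 and 3.39, CR31840 4.21, 4.4 and 3.56, and CG34383 4.49, 4.24 and 3.66. The peak at Dscam1, the highly spliced Ig receptor of self-avoidance, scored 4.25, 4.31 and 3.53, and its peak in replicate 3 was the longer at 2446 bp, against 1312 bp in the others. At twi and CG42741 the order was the opposite, with scores of 4.13, 4.04 and 4.81 beside lengths of 939, 939 and 354 bp. Of the 10 members with the largest SD, the borders differed between replicates in 6.

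Borders were the same in all 3 replicates for 173 members (56.5%), against 836 other shared peaks (40.5%). Relative to members of equal length, those with a longer peak had lower scores and those with a shorter peak higher ones. In replicate 2 the peak was longer than in replicate 1 for 31 members, and 27 of these had a lower score, with a median difference of -0.27. It was of equal length for 207 members, with a median difference of -0.05, and shorter for 68, of which 43 had a higher score, with a median difference of 0.06. Replicate 3 followed the same order, with median differences of -0.36 for 31 members with a longer peak, -0.21 for 217 of equal length and -0.11 for 58 with a shorter peak. The other shared peaks gave -0.14, 0.07 and 0.24 in replicate 2 and -0.36, -0.18 and 0.02 in replicate 3. The score and the borders come from the same caller and track, and the part of either in the other was not tested.

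Members were short. Their median length was 1100.5, 1099.5 and 1081 bp in replicates 1, 2 and 3, against 1668, 1684 and 1632.5 bp for the other shared peaks. Of all replicate 1 peaks between 500 and 1000 bp, 22.1% were members, and of those of 3 kb or more, 2.80% (9 of 321). Across bins of the replicate 1 score the median length of shared peaks on replicate 1 borders fell at each step, from 2252 bp below a score of 2 to 1292 bp between 3.5 and 4, and on to 887 bp at 4.5 or more. Length also went with the false discovery rate (FDR) that the caller gave. In replicate 1 the 13 members with an FDR of 0.001 or more had a median length of 691 bp, against 1122 bp for the 293 members below it. Length and score come from the same signal, so these lengths are a description of the choice and not independent of it.

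**Figure D3:**
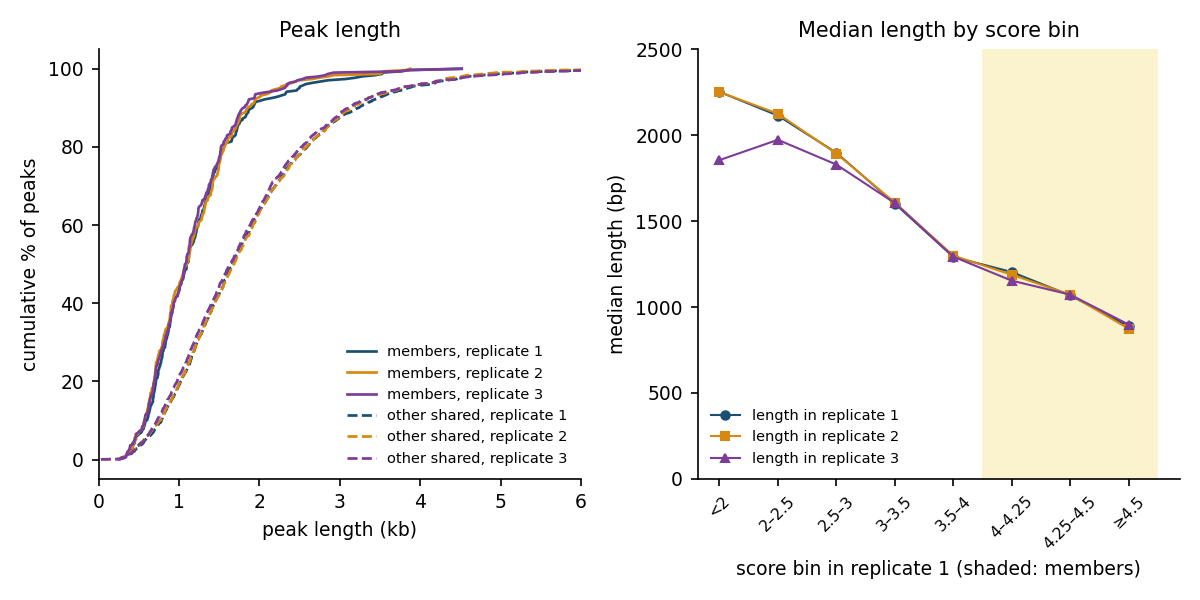
Left, cumulative percentage of peaks up to each length in kb, with members as solid lines and other shared peaks as dashed lines, in the colours of the 3 replicates; a few longer peaks lie beyond the axis. Right, median length in bp of shared peaks in bins of the replicate 1 score, measured on the borders of each replicate, with the bins of the members shaded; replicate 1 falls to 887 bp in the bin of 4.5 or more.

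The extremes of length held well known genes. The shortest members were CG14186 with CR44679 at 300 bp, CG4168 at 329 bp, CG33639 at 340 bp, sim at 343 bp and nocte at 357 bp. The short peak at sim, the bHLH-PAS regulator of midline cells, scored 4.36, 4.57 and 4.39, and that at nocte, needed for setting the circadian clock by temperature, 4.14, 4.16 and 4.08. Both had the same length in every replicate. The longest member lay over the border of elav, the neuronal RNA-binding protein used as a pan-neuronal marker, and was also listed for the arginase gene arg. It was 4517, 2266 and 4517 bp long and scored 4.06, 4.28 and 3.76. The next in length in replicate 1 were lobo at 3876 bp and mub, a KH domain RNA-binding protein, at 3751 bp. CG17816 followed at 3529 bp and a peak inside hipk, a kinase of homeodomain proteins, at 3528 bp. Most were shorter in another replicate. The lengths in replicates 2 and 3 were 3876 and 1723 bp for lobo and 2926 bp in both for mub. They were 2737 bp in both for CG17816 and 3528 and 1861 bp for hipk. The hipk peak, also listed for the cyclophilin gene Cypl, was among the most even of the long ones in score, at 4.48, 4.53 and 4.52.

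Members lay inside genes more often than at their ends. Relative to protein-coding genes, 218 members (71.2%) lay wholly inside a gene and over no gene border, against 64.4% of the other shared peaks. A border of a protein-coding gene was crossed, or a whole such gene covered, by 33 members (10.8%), against 448 other shared peaks (21.7%). With genes of all kinds counted, these numbers were 50 members (16.3%) and 558 other shared peaks (27.1%). Peaks of the protein-coding border class that also lay inside another gene were counted only there. With those added, 224 members (73.2%) lay inside a gene, against 67.5%. A further 11 members (3.59%) lay outside but within 1 kb of a gene, against 3.30%, and 44 (14.4%) had no protein-coding gene within 1 kb, against 219 (10.6%). Within classes of length, 8.93% of members and 15.5% of the other shared peaks crossed a border at 500 to 1000 bp, 13.6% and 20.3% did at 1000 to 1500 bp, 10.9% and 23.9% at 1500 to 2000 bp, and 5.88% and 27.3% at 2000 to 3000 bp. Below 500 bp the shares were close, at 5.26% (1 of 19 members) and 5.88%. At 3 kb or more the shares were 2 of 9 members and 21.8% of the other shared peaks. The border is either end of a gene, since the annotation table gives no strand. The longest protein-coding gene around a peak had a median length of 24244.5 bp over members and 34290 bp over the other shared peaks. These medians are over peaks, so a gene that held several peaks was counted several times. Members with 2 or more protein-coding genes within 1 kb numbered 60 (19.6%), against 580 (28.1%).

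**Figure D4:**
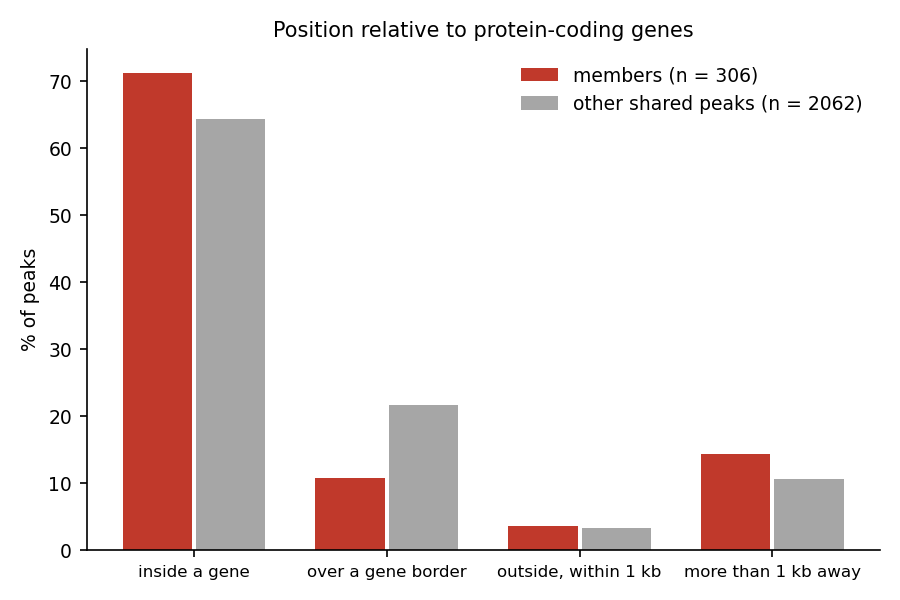
Percentage of 306 members (red, left) and 2062 other shared peaks (grey, right) by position relative to protein-coding genes: inside, across a gene border, outside but within 1 kb, or farther away. The border class holds 10.8% of members and 21.7% of the other shared peaks.

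Members were spread over all chromosomes that had peaks. They numbered 82 on 3R, 60 on 2R, 55 each on 2L and 3L, and 53 on X, which was 10.2% to 11.8% of the replicate 1 peaks of each of these arms. Chromosome 4 had 1 member among 18 peaks, at the border of zfh2, which encodes a zinc finger homeodomain protein, with scores of 4.23, 4.05 and 3.93. Most members, 277, stood alone, and 29 had another member within 10 kb, in 14 groups. Appl, the fly homolog of the amyloid precursor protein, held the only group of 3, all inside the gene. Its peaks scored 4.14, 4.07 and 3.61 for the first along the chromosome, 4.28, 4.45 and 4.36 for the second, and 4.25, 4.15 and 4.08 for the last. They were 390 to 885 bp long. In crp, 2 members were separated by 530 bp and differed in level, the stronger as given above and the weaker at 4.02, 3.63 and 3.49. In CG1607, 2 members were 361 bp apart and scored 4.07, 3.99 and 3.71 for one and 4.14, 4.20 and 4.01 for the other. Pairs also lay at the GATA factor gene grn, the BTB factor gene lola, the splicing factor gene ps, Akap200, Eip75B and RhoGAP100F. The remaining pairs lay at CG12769 and lig, CG14853 and put, prominin-like, CR45247, and CR45723 with CR45722 and CR43839.

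The genes listed by the authors with the score of a member and lying within 1 kb of it numbered 364 symbols, of which 308 were protein-coding, 35 long non-coding RNAs, 7 tRNAs, 6 snoRNAs and 4 microRNAs. All annotated genes gave a share of 2.05% with a member within 1 kb, and protein-coding genes 2.21%. Of genes with any replicate 1 peak, 13.2% had a member. A single symbol belonged to 187 members, 2 or more to 86, and none to 33. A total of 363 of the 364 symbols were also in the gene lists of replicates 2 and 3. With more than 1 member there were 17 symbols, and Appl and pum had 3. In pum, the translational repressor Pumilio, the peaks were far apart within the gene, at 3R:9076044-9077331 with 4.21, 4.12 and 4.47, at 3R:9151378-9152362 with 4.06, 4.02 and 3.56, and at 3R:9226342-9227414 with 4.28, 4.28 and 4.17. The microRNA genes were mir-210, mir-2282, mir-2496 and mir-4978. The peak near mir-210 scored 4.52, 4.37 and 4.01.

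The share of genes with a member rose with gene length, and the lists of gene families below hold many long genes. A member was within 1 kb of 0.728% of protein-coding genes under 5 kb, 4.13% of those of 5 to 20 kb, 11.5% of those of 20 to 50 kb and 15.6% of longer ones. Among protein-coding genes with any replicate 1 peak, the shares in the same classes were 7.95%, 13.8%, 20.7% and 21.5%. The family counts are descriptions beside these shares and not tests.

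Among transcription factors, the share of homeobox genes with a member was near that of all protein-coding genes. Of 67 homeobox genes, 7 had any replicate 1 peak and 2 had a member (2.99%). These 2 were 28.6% of those with a peak, beside 13.2% of all genes with a peak. For protein-coding genes of 5 to 20 kb with a peak the share was 13.8%. They were zfh2 and ap, the LIM homeodomain gene apterous. The member inside ap scored 4.19, 4.01 and 3.83. Of 25 genes of nuclear receptors and the ecdysone response, 12 had a peak and 4 had a member (16.0%). Eip74EF, an ETS factor induced by the steroid hormone ecdysone, scored 4.26, 4.52 and 4.11, and Eip93F, a helix-turn-helix factor of late ecdysone responses, 4.28, 4.29 and 4.16. The orphan receptor gene svp, the fly COUP-TF, scored 4.39, 4.31 and 3.94. The fourth was Eip75B, which held a pair of members. EcR, the ecdysone receptor itself, stood just below the threshold in replicate 1 and above it elsewhere, at 3.76, 4.06 and 4.30.

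Of 25 zinc finger regulators of neurons, lola, fru and chinmo had a member (12%). The stronger of the lola peaks scored 4.61, 4.36 and 4.48. The peak inside fru, the sex determination and behavior gene fruitless, scored 4.19, 4.32 and 4.12, and chinmo, a factor of temporal identity, was on the threshold at 4.00, 3.96 and 3.89. Among 32 bHLH genes, crp, sim and Mnt, a partner of Max, had members (9.38%), and 7 had any peak. Sox15 was the only one of 8 Sox genes, at 4.10, 3.98 and 3.97. Of 33 chromatin regulators 6 had a member (18.2%), among them the Polycomb group genes ph-p (4.35, 4.35 and 4.15) and Asx (4.14, 4.27 and 4.10), the Mediator subunit gene skd (4.27, 4.34 and 3.91) and Sin3A, a histone deacetylase corepressor (4.13, 4.26 and 3.79). Gug, given above, was the highest of them, and the lowest was osa, a subunit of the Brahma remodelling complex, at 4.02, 4.19 and 3.66.

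Genes of cell surface recognition were the largest list, and most of them were long. Of 102, 61 had any replicate 1 peak and 12 had a member (11.8%), against 11.5% of all protein-coding genes of 20 to 50 kb. The highest by the mean of replicates 2 and 3, with equal means, were kirre, an Ig adhesion molecule of the irre cell recognition module, whose 383 bp member (X:2770738-2771120) scored 4.60, 4.5 and 4.47, and Sema-1b, given above. The peak at beat-VI, of the Beaten path family, scored 4.51, 4.57 and 4.19, and that at Dscam4 4.44, 4.31 and 4.17. Sema-1a, an axon guidance semaphorin, had a pair of members, the stronger with 4.19, 4.30 and 4.13. The peak of beat-IIIb scored 4.20, 4.31 and 4.00. The others, dpr6, Dscam1, Ten-m, dpr1, CG34113 (side-III) and beat-IIb, were below 4 in replicate 3, where they scored 3.53 to 3.87.

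Among genes with any replicate 1 peak, those with a member made up 8.33% for potassium channels, 25% for sodium and calcium channels (2 of 8), 13% for neurotransmitter receptors and 11.1% for synaptic vesicle and transmitter genes, beside the 13.2% of all genes. Of 19 potassium channel genes 12 had a replicate 1 peak and only Task6, a leak channel, had a member, at 4.08, 3.71 and 3.91. SK, the small-conductance calcium-activated channel, lay just outside at 3.98, 4.18 and 3.79, as did Sh, the Shaker channel, at 3.94, 3.86 and 3.75. For SK and Sh these are the highest scores listed for the gene in each replicate, which need not belong to the same peak. Of 12 sodium and calcium channel genes, cac, the presynaptic calcium channel cacophony, had a member of 4.5, 4.44 and 4.52, and tipE, an auxiliary protein of the sodium channel, one of 4.02, 4.40 and 3.84. The innexin gene shakB, which forms electrical synapses, had 4.42, 4.46 and 4.31 and was 1 of 8 innexins. Of 41 neurotransmitter receptor genes 23 had a peak and 3 had a member (7.32%): Nmdar1, an NMDA receptor subunit, with 4.51, 4.48 and 4.23, and the octopamine receptors Octbeta3R, with 4.36, 4.5 and 4.16, and Octbeta2R, with 4.42, 4.16 and 4.34.

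Of 32 synaptic vesicle and transmitter genes 18 had a peak and 2 a member (6.25%), namely Rab3, a vesicle GTPase, at 4.04, 3.98 and 3.84, and Sap47, a synapse-associated protein, at 4.09, 4.00 and 3.67. Both were close to the threshold. Among 41 genes of neuropeptides and their receptors, the neuropeptide gene FMRFa had the strongest member, with 4.30, 4.43 and 4.19, followed by Pdfr, the receptor of pigment-dispersing factor, with 4.34, 3.67 and 4.25. SIFaR and Dh44-R2 were lower. Of the other genes that the study examined for DamID signal, KCNQ, DIP-beta, Nrx-1, sNPF, FMRFaR and VAChT had no member. Their highest scores in replicate 1 were 3.09 to 3.90. The study used a lower cut, a peak score above 2.5, and all of these scores exceed it. Neither pdm3 nor zfh1, whose loci the study also examined, was among the symbols listed at members. Lower scores at these loci are not given here.

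The largest shares of all genes of a list were at neuronal RNA-binding proteins and the cytoskeleton. Of 21 RNA-binding protein genes 15 had a peak and 5 had a member (23.8%), pum, bru-2, mub, elav and msi. Their median length was 45943 bp. The splicing and translation regulator gene bru-2 scored 4.34, 4.38 and 3.91, and msi, which encodes Musashi, 4.36, 3.85 and 4.13. Of 34 cytoskeleton genes 7 had a member (20.6%), with a median list length of 15810 bp. Besides hts and stai these included tau, the microtubule-associated protein (4.57, 4.66 and 4.28), and trio (4.31, 4.52 and 4.11). Lower were ena, the actin regulator Enabled (4.14, 4.22 and 4.04), and Act5C, a cytoplasmic actin (4.18, 4.06 and 3.98). The lowest was spir, an actin nucleator (4.02, 3.87 and 3.85). Of 60 genes of Notch, Wnt, BMP, Hedgehog and receptor tyrosine kinase signalling, 33 had a peak and 5 a member (8.33%). After put, the highest was mam, the Notch coactivator Mastermind, with 4.30, 4.34 and 3.85, and the others were shn, sty and ths. In the cAMP, calcium and plasticity list, rut and the calmodulin gene Cam (4.15, 4.09 and 3.83) had members among 25 genes, and Vha16-1 was the only one of 17 vacuolar ATPase genes.

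**Figure D5:**
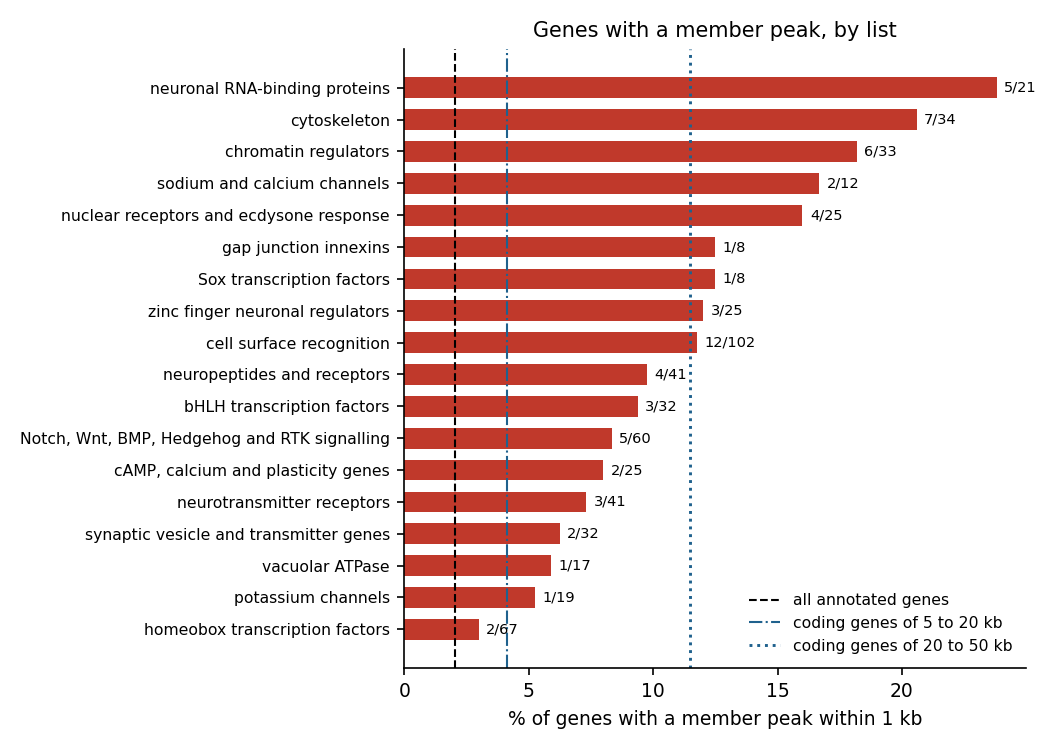
Percentage of the genes of each of 18 lists that had a member within 1 kb, with the number of genes beside each bar, and the shares over all annotated genes (dashed), protein-coding genes of 5 to 20 kb (dash-dotted) and of 20 to 50 kb (dotted). The bars run from 2.99% for homeobox genes to 23.8% for neuronal RNA-binding proteins.

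Of the 306 members, 31 had no annotated gene of any kind within 1 kb (10.1%), against 160 of the other shared peaks (7.76%). With protein-coding genes alone, the share without a gene within 1 kb was 14.4% of members and 10.6% of the other shared peaks. By replicate 1 score, which chose the members, it was 14.3% at 4 to 4.25 and 10.5% at 4.25 to 4.5. Among the 43 members at 4.5 or more it was 23.3% (10 members), so the share did not rise steadily with score. Several of the 31 members with no annotated gene within 1 kb lay next to genes of transcription factors or axon guidance. These were singled out after their positions were seen. A member of 1054 bp (2L:19771016-19772069) lay between bsh and CdGAPr and scored 4.65, 4.60 and 4.42. The bsh gene was in the gene list of replicate 1 only, at 2.51. A second lay next to ap but outside it (2R:5745481-5746256) and scored 4.42, 4.67 and 4.24, above the member inside ap in every replicate.

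Others in this class lay between Dyrk2 and wb, a laminin gene, with 4.77, 4.76 and 4.26, between grn and CheA84a, with 4.49, 4.38 and 4.37, and between the BTB factor genes lola and psq, with 4.22, 4.37 and 4.31. The peak between the cell death genes grim and rpr scored 4.30, 4.32 and 4.02. Beside the Netrin gene NetA the scores were 4.24, 4.32 and 4.05. The peak between CG42710 and SoxN, a Sox factor of the early nervous system, was at the lower limit, with 4.00, 3.73 and 3.77. Which gene, if any, such a peak belongs to was not tested.

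The threshold cut through a dense part of the list. Just inside it, at 4.00 in replicate 1, the first members in genome order were the peak at dbr with CR45339 and CR45340 (3.95 in replicate 2 and 3.39 in replicate 3), chinmo, the gene-free peak beside SoxN, CG33129 (3.72 and 3.74) and CG4168. Just outside it, at 3.99, were CG33673 (4.00 and 3.65), CG42389 (3.72 and 3.68), Oda with mir-281-1 and mir-281-2 (4.15 and 3.93), the glucose transporter gene Glut1 (4.06 and 3.52) and the PAR domain factor gene Pdp1 (4.25 and 3.89). The 78 members below 4.10 faced 92 shared peaks at 3.90 to 3.99. In the other direction, 13 other shared peaks were at 4 or more in both replicate 2 and replicate 3 and below 4 in replicate 1 only. These 13, picked out on their values, included vn, an EGF receptor ligand, at 3.98, 4.63 and 4.21, a peak at Bili and danr at 3.90, 4.53 and 4.33, one at nerfin-1, a zinc finger gene of neuronal maintenance, and Glut1 at 3.90, 4.39 and 4.32, and Ptp10D, a receptor tyrosine phosphatase, at 3.40, 4.26 and 4.17.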

How the data were processed

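Targeted DamID was analysed in 3 replicates of 1 group. Reads were checked with FastQC 0.11.9 per the labels. For each replicate the authors ran the damidseq pipeline, which sets Bsh:Dam over Dam on the log2 scale, called peaks on unpooled replicates with find_peaks (FDR below 0.01, min_quant 0.9) and listed genes within 1 kb with peaks2genes. The deposited peak and gene files hold a score, whose formula is not given in the sources used here. The study lists Bowtie2 among its software. The genome build and the Dam library behind each replicate are not given, so whether replicates share a background is not known. The files hold no counts, so depth is unknown and no interval was computed.

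Overlaps of at least 1 bp were computed with numpy 2.4.6 and pandas 2.3.3 in Python 3.11.15, tested on simulated data. Where several peaks overlapped a member, the highest score was taken. Gene symbols were paired with a member by equal score and a RefSeq Release 6 gene span within 1 kb. These spans lack strand and gave neighbours only, and no coordinate from them is printed. Plots used matplotlib 3.10.9, and no sequence was used here, so motifs were not counted. The planned share of peaks over gene starts became a share over gene borders. Lines without a RefSeq match numbered 30, 46 and 52 in replicates 1, 2 and 3.

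Named genes were those at the 20 highest members by the mean of replicates 2 and 3 and at the 10 with the largest SD. Those at the 5 longest and 5 shortest, at the 5 on either side of the threshold and in groups within 10 kb were also named. From 18 gene lists up to 6 a list were named, with all 12 for cell surface recognition and all 7 for the cytoskeleton. Genes that the study examined were added. Others, such as the most even members and the neighbours of gene-free peaks, were named after their values were seen. The members and lists were chosen with earlier results of these data known. With 1 group there was no test. Alternatives were other thresholds, overlaps, borders, FDR limits and gene rules, each replicate left out, and, chosen after seeing the data, the threshold on replicate 2 or 3.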

Additional observations from a re-analysis of the deposited data

How the results depend on the processing

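The number of members followed the threshold, at 833 with a score of at least 3.5, 43 with 4.5 and 154 with 4 in all 3 replicates. Median scores were 3.89 and 4.54 in replicate 2 and 3.69 and 4.46 in replicate 3 for the thresholds of 3.5 and 4.5. The median length was 1213 bp at 3.5, 887 bp at 4.5, 1053 bp with 4 in all replicates and 1081 bp on replicate 3 borders. With the threshold on replicate 2, an alternative chosen after seeing the data, 331 peaks qualified, of which 73.7% overlapped a member, and their median length was 1033 bp, against 1687.5 bp for other shared peaks. On replicate 3, 212 qualified, 81.1% overlapped a member, the median length was 940.5 bp, against 1602 bp, and the share over a gene border was 6.6%, against 21.3%. Counting borders within 1 kb gave 28.8%. Leaving out each replicate in turn gave 306 to 332 members, a median length of 1032.5 to 1100.5 bp and a border share of 9.04% to 10.8%. A reciprocal overlap of 50% gave 287 members and an FDR below 0.001 gave 293. The number of gene symbols was 369 for annotated genes within 1 kb and 283 for those overlapped. The motif alternatives and the window around gene starts were not run, since no sequence and no strand were used here. No paired analysis was possible because the samples form 1 group. Neither read depth nor the background of Dam at a peak could be taken into account, and which of the closely spaced scores near 4 exceed the threshold varied between replicates.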
